A study of Mus musculus with 6 samples.

Results

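Guanylate-binding proteins (GBPs) were followed in CD8 T cells through 8 genes, Gbp2 to Gbp9, out of 32285 genes in the count matrices. They were taken by name, with earlier results of these data known, and the family members Gbp10 and Gbp2b were left outside the 8. All 8 symbols were found. Single-cell RNA was measured in sorted CD8 T cells from B16-OVA tumors, a mouse melanoma line that expresses ovalbumin, and from the draining lymph nodes (LN). Control mice were CD8-Cre Rosa26Tomato, and CD8-IFNγRKO mice carried in addition IFNgR1flox/flox, so both genotypes held the Cre and the Tomato reporter and only the latter could lose the IFNγ receptor chain in Cre-expressing cells. Cells positive for CD45, CD3, CD8 and Tomato, harvested on day 12 and pooled from 3 mice, made 1 library per tissue and genotype, giving 4 expression libraries. CD8-Cre acts in mature CD8 T cells and leaves the receptor on the other cells of the host. Mice of both sexes, aged 6 to 10 weeks, were used.

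GBPs are large GTPases that gather on pathogen vacuoles and on exposed bacterial surfaces, and they are classic products of interferon stimulation. IFNγ binds a receptor of Ifngr1 and Ifngr2 chains, and signaling through JAK kinases leads to binding at GAS elements in target promoters and to induction of Irf1, which acts on ISRE elements. Type I interferon reaches many of the same genes. In mice the genes lie in 2 clusters. On GRCm38.p6 (the assembly of mm10), Gbp5, Gbp7, Gbp3 and Gbp2 lie in that order on chromosome 3, from position 142496934 to 142638008, and Gbp8, Gbp9, Gbp4 and Gbp6 lie on chromosome 5, from 105012513 to 105295871.

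RefSeq promoter sequences (GRCm38.p6) were matched for 4 of the 8 members, Gbp2, Gbp3, Gbp5 and Gbp7. The 250 bases before the gene start are printed because they hold the letters that interferon-activated factors are known to bind. Capitals mark GAS letters (TTCNNNGAA) or the ISRE core (GAAANNGAAA or its reverse complement), searched on both strands; Gbp3 is shown at its upstream start of 2, and its other start held neither.
Gbp5, chr3:142496684-142496933, plus strand: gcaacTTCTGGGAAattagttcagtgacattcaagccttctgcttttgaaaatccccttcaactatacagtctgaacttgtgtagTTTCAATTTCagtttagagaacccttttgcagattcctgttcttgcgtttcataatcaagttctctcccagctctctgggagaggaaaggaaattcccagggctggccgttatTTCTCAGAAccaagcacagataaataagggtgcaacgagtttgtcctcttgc
Gbp7, chr3:142530086-142530335, plus strand: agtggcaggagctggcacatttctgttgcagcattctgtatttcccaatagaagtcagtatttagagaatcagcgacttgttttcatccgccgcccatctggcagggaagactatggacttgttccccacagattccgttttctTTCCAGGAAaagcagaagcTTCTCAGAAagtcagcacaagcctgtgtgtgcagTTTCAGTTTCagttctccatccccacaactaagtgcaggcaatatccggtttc
Gbp3, chr3:142559794-142560043, plus strand: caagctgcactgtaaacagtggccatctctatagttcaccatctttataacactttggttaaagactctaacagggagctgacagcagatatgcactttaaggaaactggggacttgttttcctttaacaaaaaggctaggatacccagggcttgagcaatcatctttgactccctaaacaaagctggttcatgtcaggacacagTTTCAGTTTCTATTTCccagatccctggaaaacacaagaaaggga
Gbp2, chr3:142620413-142620662, plus strand: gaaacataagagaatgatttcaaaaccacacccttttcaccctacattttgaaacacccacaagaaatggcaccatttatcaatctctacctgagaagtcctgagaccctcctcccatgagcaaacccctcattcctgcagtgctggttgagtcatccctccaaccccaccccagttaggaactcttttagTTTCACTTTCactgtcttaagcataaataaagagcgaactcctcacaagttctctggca

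An ISRE core was present in all 4 promoters, and all matches lay on the reverse strand. In Gbp2 it spanned bases -59 to -50 before the start, in Gbp7 -53 to -44 and in Gbp5 -165 to -156. Gbp3 held 2 overlapping matches from -45 to -30. Over 32851 RefSeq promoters of the same length, 2.98% held the core. GAS letters occurred at 2 places in each of Gbp5 and Gbp7, and in 7.02% of all promoters. Gbp2 and Gbp3 held no GAS letters in these windows. A match of letters describes the sequence only.

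After filtering, 6677 cells of the control tumor, 7896 of the CD8-IFNγRKO tumor, 6256 of the control LN and 6321 of the CD8-IFNγRKO LN were kept, with 26458587 to 81772852 unique molecular identifiers (UMIs, 1 per captured transcript) per library. Median UMIs per cell were 6062 and 8929 in the control and CD8-IFNγRKO tumor, and 4001 and 3818 in the LN. Between 45 and 72 barcodes were shared by any pair of libraries (0.719% to 1.08%). Levels are given as CPM, the UMIs of a gene per 1000000 UMIs of the kept cells of that library. UMIs were read at the 5′ end and are not divided by length, so levels are compared between libraries for 1 gene and not between genes. With 1 library per group no test was possible. The 95% intervals (exact Poisson for CPM, exact binomial for ratios and shares) cover counting error only, and differences between mice or between library preparations cannot be told apart from the genotype. The targeted gene, Ifngr1, stood at 733 CPM in the control tumor and 237 CPM in the CD8-IFNγRKO tumor (log2 ratio -1.63), and at 183 and 137 CPM in the LN (-0.41). The sort markers Cd3e, Cd8a and Cd8b1 were present in every library. A UMI of Cd8a and of Cd8b1 was required of each kept cell. Macrophage Adgre1 was at 0 or 1 UMIs. In the same myeloid list Cst3 had 11993 and Fcer1g 2857 UMIs in the control tumor. Markers of other cell types also served to leave out cells, so these counts are no separate measure of purity.

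In the LN all 8 members were lower in CD8-IFNγRKO than in control CD8 T cells, and all 8 counting intervals lay below 0. A further filter left out every cell that held any UMI of another cell type's markers. It removed 4581 of 6256 control and 4666 of 6321 CD8-IFNγRKO LN cells, and intervals are wider on fewer counts. All 8 ratios stayed below 0 under this filter, with 5 of their intervals below 0 and 3 that held 0. No share over all genes was computed for this or the other counts of intervals, so they have no background to be read against. At this depth an interval can exclude 0 for a small shift, as for Gbp7 in the tumor at 0.10 (0.05 to 0.15). By rank of the log2 ratio, 0.785% (Gbp2) to 9.01% (Gbp9) of genes were lower than the member in the LN. In the tumor this ran from 9.84% (Gbp6) to 59.6% (Gbp7). Summed over the members, the level was 457 CPM in the control LN and 335 CPM in the CD8-IFNγRKO LN, a log2 ratio of -0.45 (95% interval -0.49 to -0.41). In the tumor the sum stood at 591 CPM and 514 CPM (-0.20, -0.22 to -0.18), and the members diverged from each other: 5 intervals lay below 0, 1 above and 2 held 0. The tumor sum was -0.089 with the marker-bearing cells left out, where 1 interval lay below 0 (Gbp6), 1 above (Gbp9) and 6 held 0. That filter removed 4904 of 6677 control and 6253 of 7896 CD8-IFNγRKO tumor cells. The tumor sum was -0.13 with cells thinned to 1600 UMIs, where 3 intervals lay below 0, 1 above and 4 held 0. Thinning left out 699 of 6677 control and 276 of 7896 CD8-IFNγRKO tumor cells, which had fewer UMIs. It also weighted cells equally and left fewer counts, so it is not an adjustment for depth alone. Past a log2 ratio of -0.5 there were 3 of 8 members in the LN, against 2.36% of the 10834 genes with 50 or more UMIs. In the tumor there were 0 of 8, against 8.78% of 11976 genes. Both counts leave out Gbp10, which was past -0.5 in each tissue (-0.53 in the tumor and -1.24 in the LN). The median log2 ratio of the members was -0.38 in the LN and -0.17 in the tumor, where that of all genes was 0.03 and 0.02. Summed markers of other cell types were close between the LN libraries for B cells (217 CPM in control and 220 in CD8-IFNγRKO, nearly all Ighm) and myeloid cells (70.5 and 64.6 CPM), and were 7.69 and 14.2 CPM for CD4 T cells. In the tumor the myeloid list, mostly Cst3, stood at 298 and 256 CPM and the B cell list at 5.89 and 13.3 CPM. The 5 CD8 T cell markers were all lower in the CD8-IFNγRKO tumor, with a median log2 ratio of -0.40 (-0.52 to -0.33 over the genes) and a summed level of 6424 CPM in control and 4793 in CD8-IFNγRKO. In the LN they stood at 4269 and 4431 CPM, with a median of 0.03. The part of these lists in the GBP ratios was not tested, beyond the cell filters given with each gene and in the closing section.

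**Figure D1:**
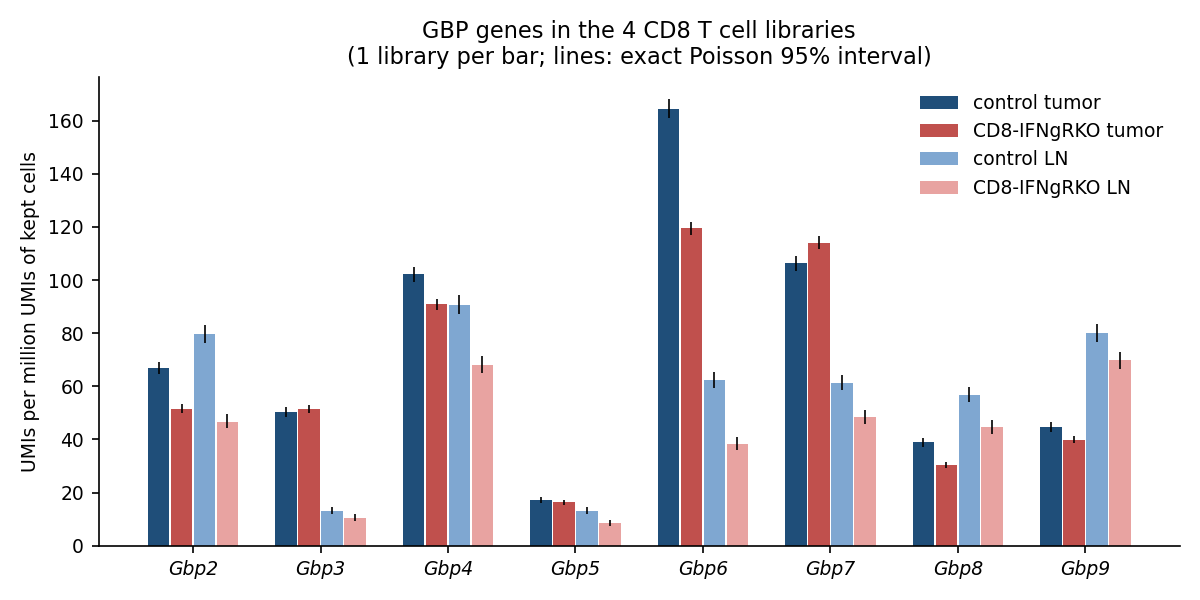
Level of each GBP gene (CPM, UMIs per 1000000 UMIs of kept cells) in the 4 libraries, 1 bar per library, with exact Poisson 95% intervals as lines. For all 8 genes the CD8-IFNγRKO LN bar is below the control LN bar, and for Gbp7 the CD8-IFNγRKO tumor bar, at 114 CPM, is above the control tumor bar at 106 CPM.

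Gbp2, an interferon-induced GTPase with a prenylation motif that anchors it to membranes, was at 79.6 CPM in the control LN, 67.0 in the control tumor, 51.6 in the CD8-IFNγRKO tumor and 46.7 in the CD8-IFNγRKO LN. None of these 4 neighbouring intervals overlapped. Its log2 ratio of CD8-IFNγRKO over control was -0.77 (-0.87 to -0.67) in the LN, where 0.785% of genes were lower, and -0.38 (-0.44 to -0.31) in the tumor. The tumor ratio of Gbp2 went to 0.024 when every cell with any UMI of another cell type's markers was left out. That filter removes 4904 of 6677 control tumor cells, and the lists it uses include Cst3, which was found in 28.6% of control tumor cells thinned to equal depth.

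Gbp6 belongs to the chromosome 5 cluster. It was at 165 CPM in the control tumor, 119 in the CD8-IFNγRKO tumor, 62.4 in the control LN and 38.4 in the CD8-IFNγRKO LN. The order put both tumor libraries above both LN libraries, and the control above the CD8-IFNγRKO library in each tissue. Its log2 ratios were -0.46 (-0.51 to -0.42) in the tumor and -0.70 (-0.81 to -0.59) in the LN. Gbp6 kept its sign under every alternative run, from -0.51 to -0.37 in the tumor. Its neighbour Gbp10, a near-identical gene outside the 8, had log2 ratios of -0.53 in the tumor (44.3 and 30.6 CPM) and -1.24 in the LN (9.04 and 3.82 CPM). Reads that map equally to such copies are not counted by this pipeline, so the split between Gbp6 and Gbp10 is uncertain. The same holds for the other close copies of the chromosome 5 cluster, Gbp4, Gbp8 and Gbp9.

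Gbp5, which is known for promoting inflammasome assembly, was at 13.1 CPM in the control LN and 8.58 in the CD8-IFNγRKO LN (log2 ratio -0.61, -0.86 to -0.37). In the tumor it was at 17.1 and 16.3 CPM (-0.07, -0.20 to 0.05), a difference within counting error. Gbp4 was at 90.6 and 68.0 CPM in the LN (-0.41) and at 102 and 90.9 CPM in the tumor (-0.17). Both Gbp4 intervals lay below 0. In the tumor its interval held 0 after thinning (-0.10, -0.22 to 0.02) and with the marker-bearing cells left out (-0.083, -0.22 to 0.06).

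Gbp7 and Gbp3 were the members that did not have a lower level in the CD8-IFNγRKO tumor. Gbp7, which acts in host defence with autophagy and oxidase proteins, was at 106 CPM in the control tumor and 114 in the CD8-IFNγRKO tumor (0.10, 0.05 to 0.15), but at 61.3 and 48.5 CPM in the LN (-0.34, -0.45 to -0.23). Gbp3 was at 50.3 and 51.4 CPM in the tumor (0.03, -0.04 to 0.10), and at 13.1 and 10.5 CPM in the LN (-0.32, -0.55 to -0.09). Gbp3 in the LN rested on 358 and 277 UMIs.

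Gbp8 and Gbp9 are the pair at one end of the chromosome 5 cluster. Gbp8 was at 38.9 and 30.4 CPM in the tumor (-0.36) and at 56.8 and 44.7 CPM in the LN (-0.35). Gbp9 was at 44.7 and 39.8 CPM in the tumor (-0.17) and at 80.1 and 69.8 CPM in the LN (-0.20). The tumor log2 ratio minus the LN one was -0.01 for Gbp8 (-0.15 to 0.13) and 0.03 for Gbp9 (-0.09 to 0.15), with an approximate interval from the counts. For the other 6 members the same difference ran from 0.24 in Gbp6 (0.12 to 0.36) to 0.54 in Gbp5 (0.27 to 0.81), and all 6 intervals lay above 0. These differences rest on the cells kept. With every cell with another marker left out, Gbp8 was at -0.080 in the tumor and -0.43 in the LN, Gbp9 at 0.26 and -0.16, and Gbp6 at -0.44 and -0.40. Thinning cells to 1600 UMIs, which left out the shallower cells, took the tumor ratio of Gbp9 to 0.0068. The CD8-IFNγRKO tumor cells were deeper (median 8929 against 6062 UMIs) and had more UMIs of the mitotic list (1535 against 998 CPM); their part in the tumor ratios was not tested.

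**Figure D2:**
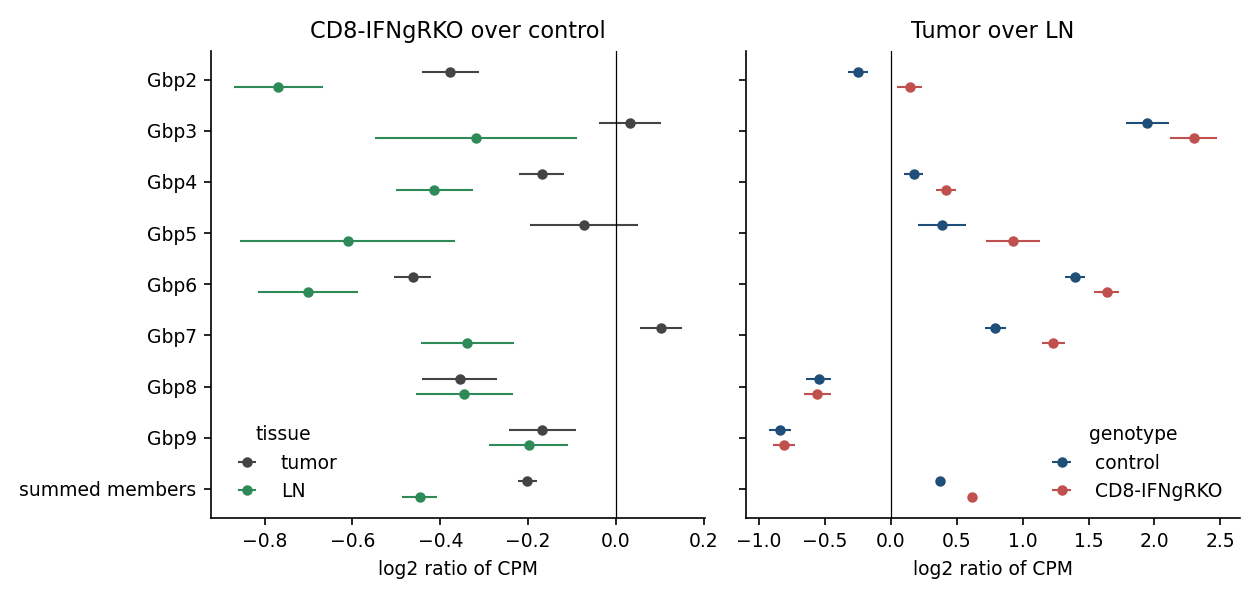
Left, log2 ratio of CPM in CD8-IFNγRKO over control for each member and the sum, in tumor and LN; right, tumor over LN in each genotype. Lines are exact 95% counting intervals; in the left panel all 8 LN points lie below 0, from -0.77 (Gbp2) to -0.20 (Gbp9), and in the right panel Gbp8 and Gbp9 lie below 0 in both genotypes.

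Compared between tissues, members went in both directions. Gbp3, Gbp6 and Gbp7 were higher in the control tumor than in the control LN by log2 ratios of 1.95, 1.40 and 0.79, and Gbp9 and Gbp8 were lower by -0.84 and -0.55. Past 0.5 there were thus 3 of 8 members higher, against 30.3% of 11614 genes, and 2 of 8 lower, against 29.4%. These shares are near the background. In CD8-IFNγRKO mice 4 of 8 were higher (Gbp3 at 2.30, Gbp6 at 1.64, Gbp7 at 1.23 and Gbp5 at 0.92), against 32.5% of 11966 genes, and 2 of 8 lower (Gbp9 at -0.81 and Gbp8 at -0.56), against 30.5%. Both sets of comparisons use the same 4 libraries as those between genotypes. Summed, the tumor stood above the LN by 0.37 (0.34 to 0.40) in controls and 0.62 (0.58 to 0.65) in CD8-IFNγRKO mice. With T cell receptor, heat shock, ribosomal and mitochondrial genes out of the total, the sums were 0.11 and 0.37. Leaving out every cell with another marker gave Gbp8 and Gbp9 ratios of 0.22 and 0.036 in CD8-IFNγRKO mice, opposite in sign. Gbp2 was lower in the tumor than in the LN in controls (-0.25, -0.33 to -0.17) and higher in CD8-IFNγRKO mice (0.14, 0.05 to 0.24), and both signs turned under alternatives given in the closing section.

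In single cells the GBPs were spread over many cells at low UMI counts. At least 1 UMI of any member was found in 88.4% of control tumor, 92.0% of CD8-IFNγRKO tumor, 75.2% of control LN and 67.0% of CD8-IFNγRKO LN cells. After thinning to 1600 UMIs the shares were 59.8%, 55.8%, 47.1% and 39.4%, an order of the tumor libraries opposite to that before thinning. Cells under 1600 UMIs were left out by thinning, 699 of 6677 in the control and 276 of 7896 in the CD8-IFNγRKO tumor. No sorted cell type here should lack GBPs, so the level of free RNA could not be read from the GBPs themselves. Melanoma markers gave a UMI in 0.184% of control and 0.236% of CD8-IFNγRKO tumor cells after the same thinning. They were among the markers used to leave out cells, which could lower these shares, so free RNA was not measured. The melanoma list stood at 20.7 (control) and 19.1 CPM (CD8-IFNγRKO) over every tumor barcode, and at 1.40 and 1.13 CPM in kept cells. Cells with 4 or more member UMIs made up 4.72% of control tumor, 4.19% of CD8-IFNγRKO tumor, 2.34% of control LN and 0.923% of CD8-IFNγRKO LN cells. The tenth of cells with most member UMIs held 36.4% to 44.1% of all member UMIs.

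GBP levels were higher in cells with more UMIs of antiviral genes. Cells were binned by thinned UMIs of 13 antiviral genes such as Ifit1, Isg15 and Usp18, which answer chiefly to type I interferon; none is a GBP. From cells with 0 to cells with 8 or more such UMIs, the summed level went from 506 to 1762 CPM in the control tumor, 409 to 1889 in the CD8-IFNγRKO tumor, 388 to 1790 in the control LN and 288 to 1391 in the CD8-IFNγRKO LN. The sum was higher in each bin than in the one before in all 4 libraries. Among cells with 0 antiviral UMIs, the CD8-IFNγRKO library was below the control in both tissues.

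Gbp2 and Gbp9 had the steepest course in the tumor. Gbp2 went from 34.5 to 348 CPM in the CD8-IFNγRKO tumor, a 10.1-fold range, and from 52.9 to 290 CPM in the control tumor, a 5.47-fold range. The log2 ratio of Gbp2 over control was -0.62 (-0.71 to -0.52) in cells with 0 antiviral UMIs and 0.27 (0.003 to 0.53) at 8 or more, on 385 and 172 UMIs. Gbp9 went from 26.0 to 235 CPM in the CD8-IFNγRKO tumor and 34.2 to 197 CPM in the control tumor. Gbp3 had a shallower course, from 46.6 to 121 CPM and from 47.1 to 109 CPM. In the LN, Gbp6 had the steepest course, 8.53-fold in control and 11.7-fold in CD8-IFNγRKO cells, on 59 and 69 UMIs in the top bin.

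**Figure D3:**
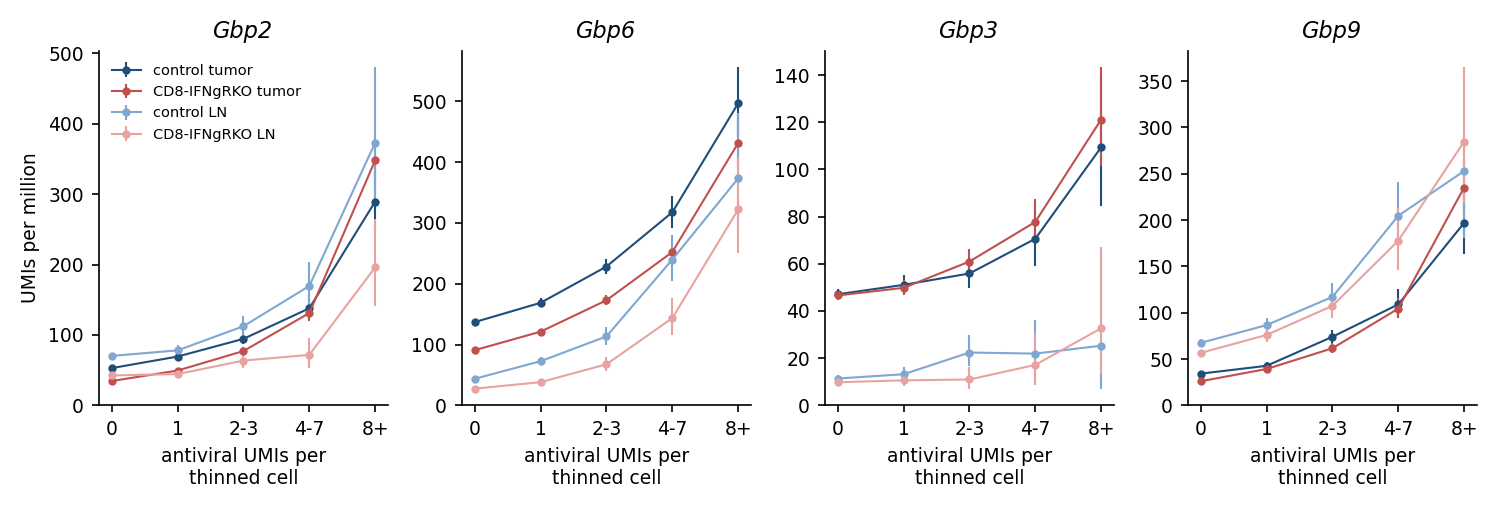
Level of Gbp2, Gbp6, Gbp3 and Gbp9 (CPM) in cells grouped by UMIs of 13 antiviral genes per cell after thinning to 1600 UMIs, by library, with exact Poisson 95% intervals. Each vertical axis has its own scale; Gbp2 runs from 34.5 to 348 CPM in the CD8-IFNγRKO tumor, and the LN curves of Gbp3 end at 25.3 and 32.7 CPM.

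Cells were next divided into ranges, in this order: 4 or more antiviral UMIs, 4 or more mitotic UMIs, a Tcf7 UMI (a factor of naive and stem-like T cells), a Ccl5 UMI (a chemokine of effector and memory cells), and the rest. These are cuts on counts and not cell types, with 202 to 573 cells per library at 3 or 4 antiviral UMIs, next to that cut, and 1026 cells next to the mitotic cut in the CD8-IFNγRKO tumor. In antiviral-high cells the summed level was 1235 CPM in the control tumor and 1211 CPM in the CD8-IFNγRKO tumor (-0.03, -0.09 to 0.04). In the LN it was 1215 and 868 CPM (-0.49, -0.62 to -0.35). Ccl5 cells of the tumor were at 586 and 517 CPM, mitotic cells at 464 and 453 CPM, and Tcf7 cells at 717 and 605 CPM. Averaging the tumor class levels by the cell shares of the control library gave a summed log2 ratio of -0.15. That average weights classes by cells and leaves out cells under 1600 UMIs, unlike the pooled UMIs behind -0.20. The values thus differ in weighting as well as in class shares, and the part of class shares was not separated.

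Gbp2 in Tcf7 cells of the tumor was at 201 CPM in control and 97.5 CPM in CD8-IFNγRKO cells (-1.05, -1.40 to -0.70). These values rest on 149 and 129 UMIs from 151 and 288 cells. In antiviral-high tumor cells Gbp2 was at 176 and 183 CPM (0.06). In antiviral-high LN cells it was at 208 and 103 CPM (-1.01, -1.40 to -0.64). Gbp6 was below control in all 5 classes of the tumor, from -0.47 in Ccl5 cells to -0.12 in the rest, with intervals below 0 in 3 of 5. Gbp7 was above control in all 5, from 0.04 in the rest to 0.54 in Tcf7 cells, with intervals above 0 in 3 of 5.

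In the LN, where Tcf7 cells made up 56.3% of control and 55.2% of CD8-IFNγRKO cells, all 8 members were lower in the CD8-IFNγRKO Tcf7 class with intervals below 0. The sum there was 446 and 318 CPM (-0.49, -0.54 to -0.43). The share of all genes with intervals below 0 in that class was not computed. Ccl5 cells of the LN were at 267 and 270 CPM (0.02, -0.23 to 0.26), on 191 and 166 cells. That interval does not reach the -0.49 of the Tcf7 class. Ifngr1 itself was lower in LN Ccl5 cells (325 and 232 CPM, -0.48) and in LN Tcf7 cells (186 and 134 CPM, -0.47). Mitotic LN cells were too few, at 9 per library, to give a ratio.

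**Figure D4:**
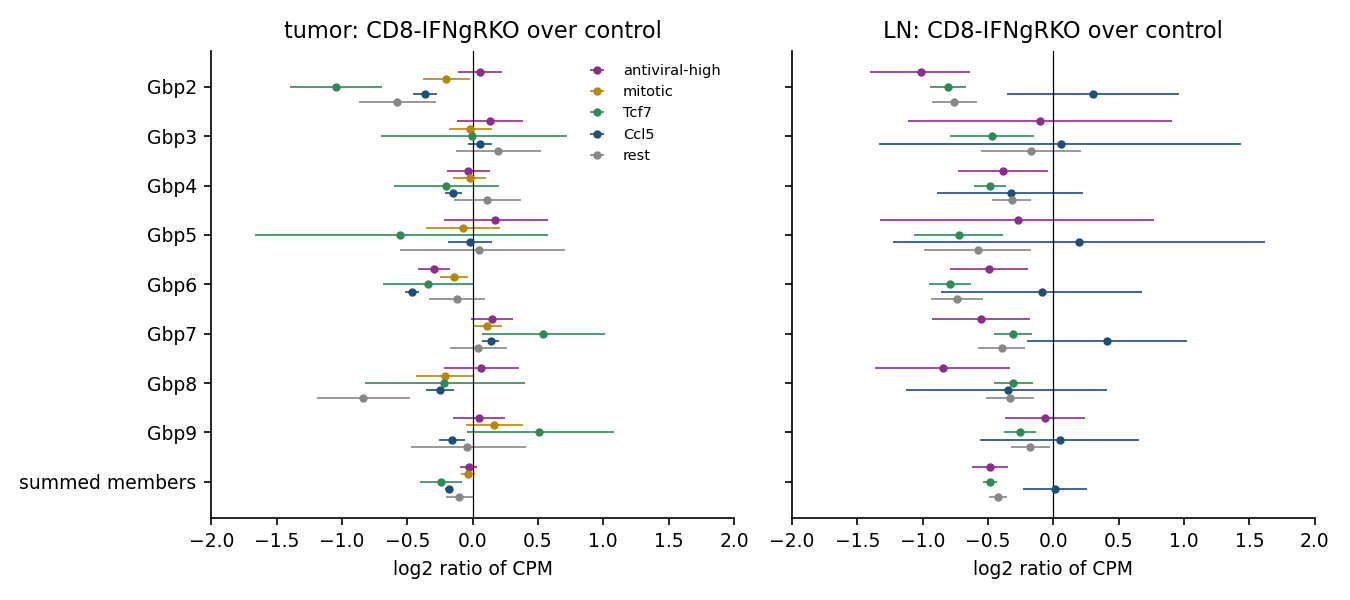
Log2 ratio of CPM in CD8-IFNγRKO over control for each member and the sum within classes of cells, in tumor (left) and LN (right); lines are exact 95% counting intervals, and mitotic LN cells are left out. Gbp2 in tumor Tcf7 cells lies at -1.05, and summed LN values run from -0.49 to -0.42 except in Ccl5 cells, at 0.02.

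T cell receptor sequences tied 4127 control and 5520 CD8-IFNγRKO tumor cells to 251 and 412 clones. Clones are not replicates of a genotype, and the 10 largest are described without a test. Their summed GBP level ran from 426 to 788 CPM in the control tumor (median 615) and from 404 to 1264 CPM in the CD8-IFNγRKO tumor (median 487). The ranges overlapped for the sum and for each member. In 9 of 10 CD8-IFNγRKO clones the sum, Gbp2, Gbp6 and Gbp8 lay below the control median, while 0 of 10 did for Gbp7. The margin for Gbp7 was small. Its lowest CD8-IFNγRKO clone was at 103.8 CPM, the control median was 103.6 CPM, and control clones ran from 58.1 to 160 CPM. For Gbp4, Gbp9, Gbp5 and Gbp3 the counts were 8, 7, 5 and 4 of 10. The same counts over all genes were not computed, so these have no background. The highest value, 1264 CPM, came from 1 CD8-IFNγRKO clone of 145 cells, which also had 1797 CPM of antiviral UMIs; the next clone was at 610 CPM. Without that clone, left out after seeing the data, the tumor log2 ratio of the sum was -0.22.

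**Figure D5:**
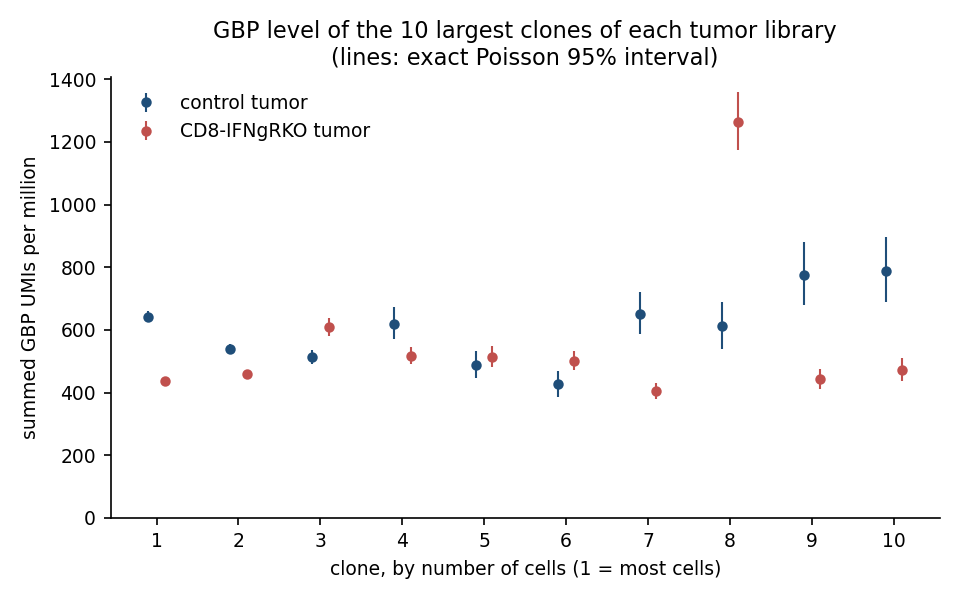
Summed GBP level (CPM) in the 10 largest clones of each tumor library, ordered by number of cells, with exact Poisson 95% intervals. The eighth clone of the CD8-IFNγRKO tumor lies at 1264 CPM, above all control clones (426 to 788 CPM).

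By clone size, cells of clones seen in 1 cell had summed GBP levels of 739 CPM in control and 802 CPM in CD8-IFNγRKO tumors. The log2 ratio was 0.12 (-0.02 to 0.26), on 175 and 347 cells. Clones of 2 to 9 cells stood at 726 and 724 CPM. Clones of 10 or more cells stood at 587 and 490 CPM (-0.26, -0.29 to -0.23). UMIs of the antiviral list also differed by clone size, at 965 CPM in control and 1611 in CD8-IFNγRKO single-cell clones. They stood at 824 and 954 CPM in clones of 2 to 9 cells, and at 447 and 474 CPM in clones of 10 or more. The part of antiviral UMIs in these GBP levels was not tested. In the large clones Gbp6 was at 167 and 117 CPM (-0.52), Gbp2 at 62.3 and 46.3 CPM (-0.43) and Gbp7 at 107 and 111 CPM (0.06). In single-cell clones Gbp2 was at 203 and 177 CPM.

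Across the 20 groups of cells made by 5 classes and 4 libraries, 10429 genes were ranked by Pearson r with the summed members, on log2 CPM. The highest were Tapbp (0.95), which encodes tapasin, Chmp4b (0.94), a subunit of the ESCRT-III complex, and Igtp (0.94), an immunity-related GTPase. Next came Zbp1 (0.93), a sensor of Z-form nucleic acid, and Isg20 (0.91), an exonuclease. The antiviral-high groups were cut on antiviral UMIs, so interferon-induced genes could rank high from the grouping itself. The groups share libraries and differ in depth, and 2 of them, the mitotic LN cells, held 9 cells each with 40 and 16 member UMIs. Over the 18 groups without them, chosen after seeing the data, r was 0.96 for Tapbp and Igtp, 0.95 for Zbp1, 0.94 for Chmp4b and 0.90 for Isg20, which then ranked 23. Between members r ran over those 18 groups from -0.11 (Gbp3 with Gbp9) to 0.94 (Gbp6 with Gbp7, on chromosomes 5 and 3).

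Genes around the GBPs in the pathway are given from lists grouped by function. All 7 immunity-related GTPases, the smaller relatives that work on the same vacuoles, were lower in CD8-IFNγRKO cells in both tissues. The share of all genes below 0 was not computed, and their median log2 ratio was 0.02 in the tumor and 0.03 in the LN. Past -0.5 there were 4 of 7 in the tumor (Tgtp1 -0.78, Iigp1 -0.77, Irgm2 -0.63 and Igtp -0.53), against 8.78% of all genes, and 2 of 7 in the LN (Iigp1 -1.63 and Tgtp1 -0.51), against 2.36%. Of 12 genes of IFNγ signaling, 2 were past -0.5 in the tumor, Ifngr1 and Irf1 (325 and 192 CPM, -0.76), against the same 8.78%. In the LN Irf8 was at 4.05 and 1.25 CPM, and Irf1 at 240 and 224 CPM (-0.10). Ifng itself stood at 472 and 426 CPM in the tumor and 12.0 and 10.6 CPM in the LN.

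Of 13 antiviral genes found, 13 reached 50 UMIs in the tumor and 12 in the LN. Of these 0 were past -0.5, against 8.78% of all genes in the tumor and 2.36% in the LN. Past 0.5 were 4 in the tumor (Oasl1 1.52, Oasl2 1.42, Ifi44 1.20 and Usp18 0.84), against 11.9% of all genes, and 1 in the LN (Oasl1 0.64), against 1.68%. The 8 autophagy genes used to target GTPases had 0 past 0.5 in either direction in both tissues, as did the 6 CaaX processing enzymes that prepare prenylated GBPs. Of all genes, 8.78% were past -0.5 and 11.9% past 0.5 in the tumor, and 2.36% and 1.68% in the LN. Of the 8 inflammasome genes downstream of GBPs, 7 reached 50 UMIs in the tumor, with 1 past -0.5 (against 8.78% of all genes), and 4 in the LN, with 0. Gbp2b, the remaining chromosome 3 gene, had at most 5 UMIs in any library.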

How the data were processed

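CD8 T cell libraries were made by the authors with 10x Genomics 5′ chemistry, and reads were mapped and counted by them with Cell Ranger multi 6.0.0 on the 10x mouse reference for mm10. The deposited matrices hold raw UMI counts per gene and cell. T cell receptor contigs of the 2 tumor libraries were deposited as tables of contigs with UMI counts.

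A barcode was used if it showed 200 to 6000 genes and UMIs of Cd2, Cd8a and Cd8b1, if mitochondrial genes made up 3% of its UMIs or less, and if its top gene made up 20% or less, following the study's methods. Cells with UMIs of 3 or more different markers of other cell types were then left out (385 to 740 per library), in place of the study's removal of a macrophage cluster; some of these markers, such as Fcer1g and Cst3, are also made by activated CD8 T cells. No doublet caller was run. UMIs were summed over kept cells. Ratios have no pseudocount and use exact conditional binomial intervals. Poisson counts were simulated with 200 genes changed. The interval covered the known value for 97% of them in the tumor comparison (11976 genes) and for 94% in the LN comparison (10834 genes). The simulated counts held no differences between mice, cells or libraries, so they check the counting interval only. For classes and shares, cells were thinned to 1600 UMIs, and 40 to 699 shallower cells per library were left out. Cells of a clone had identical alpha and beta chains (V gene, J gene and CDR3 nucleotides). Members and lists were chosen with earlier results of these data known. All 8 members are named; of listed genes, those past 0.5 or with a direct role in the pathway. Antiviral symbols matched for 13 of 14. The promoter survey left out 1 chromosome. Some listed genes are not reported here. Python 3.11.15, numpy 2.4.6 and scipy 1.17.1 were used.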

Additional observations from a re-analysis of the deposited data

Results flagged for a closer look

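For 3 members the direction of a difference was not the same in the 2 groups compared, with 1 library on each side, and the difference between the groups was not tested over replicates. For Gbp3 the CD8-IFNγRKO level over the control level gave a log2 ratio of 0.032 in the tumor and -0.32 in the LN. Gbp7 had 0.10 in the tumor and -0.34 in the LN. Gbp2 had a log2 ratio of tumor over LN of -0.25 in control and 0.14 in CD8-IFNγRKO mice.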

How the results depend on the processing

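Over 336 combinations of a member's log2 ratio and an alternative, 268 stayed inside the counting interval of the reported value, 58 left it with the same sign or from a value whose interval held 0, and 10 turned. With every cell holding any other marker left out, the tumor log2 ratio of CD8-IFNγRKO over control was 0.024 for Gbp2 and 0.26 for Gbp9; tumor over LN became 0.11 for Gbp2 in control and 0.22 for Gbp8 and 0.036 for Gbp9 in CD8-IFNγRKO mice. The sums became -0.089 (tumor, genotypes), -0.40 (LN, genotypes), 0.65 (tissues, control) and 0.96 (tissues, CD8-IFNγRKO), and the members past -0.5 in the LN numbered 1. With cells thinned to 1600 UMIs, Gbp9 in the tumor was 0.0068 and Gbp2 in control tumor over LN 0.0044, and the sums were -0.13 (tumor), 0.53 and 0.83 (tissues, control and CD8-IFNγRKO). With T cell receptor, heat shock, ribosomal and mitochondrial genes out of the total, tumor over LN was -0.090 for Gbp4 in control and -0.10 for Gbp2 in CD8-IFNγRKO mice, and the sums were 0.11 and 0.37. With antiviral-high cells left out, Gbp2 in CD8-IFNγRKO tumor over LN was -0.039, the sums were -0.25 (tumor) and 0.57 (tissues, CD8-IFNγRKO), and 2 members passed -0.5 in the tumor. Without the 8% of cells with most UMIs the tissue sums were 0.43 and 0.67. Past a log2 ratio of 1 in place of 0.5, 0 members were lower in the LN. The share of all genes was not computed for the counts of members under these alternatives, so they have no background. Chosen after seeing the data, class levels averaged by the cell shares of the control library gave -0.15 in the tumor. That setting also changed the weighting from UMIs to cells, so it does not isolate class shares. The cause of these changes was not tested. All 8 LN ratios between genotypes stayed below 0 under the 10 alternatives run on them. Centring on the median of all genes moved values by at most 0.03. No paired analysis was possible because each group holds 1 library. Depth limits Gbp3 and Gbp5 in the LN most, at 227 to 359 UMIs per library.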
